A study of Mus musculus with 12 samples.

Results

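The nuclear genes for the subunits of the mitochondrial respiratory chain and ATP synthase were followed in mouse embryonic stem cells (mESC) that had lost, or lost and regained, PROSER1, a partner of the TET enzymes that oxidise methylated cytosine. Genes were taken by symbol: Nduf genes with the letters a, b, c, s or v and a number (complex I), Sdha to Sdhd (complex II), genes beginning with Uqcr (complex III), Cox4 to Cox8 genes (complex IV) and genes beginning with Atp5 (complex V). Symbols marked as pseudogenes were removed. The rule found 84 of the 35976 genes in the table, namely 37 of complex I, 4 of complex II, 8 of complex III, 18 of complex IV and 17 of complex V. It leaves out Ndufab1 and Cyc1, which belong to complexes I and III, and takes in Atp5s, Atp5sl, Cox7a2l and Ndufa4, whose products are an assembly or associated factor or, for Ndufa4, are now assigned to complex IV. Of the 84 genes, 83 had a mean normalised count of at least 10 and were tested, and Cox8b, the heart and muscle form of a complex IV subunit, was not.

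RNA was sequenced in 2 libraries of each of 6 groups, 12 libraries in all. KO+Rescue, KO and WT cells were taken after 2 days (48 hours) of differentiation in N2B27 without serum, and as mESC in serum with LIF and inhibitors of the kinases GSK3 and MEK, which N2B27 lacked. The KO line grew from 1 sorted cell after CRISPR editing in exon 1 of Proser1, and KO+Rescue is that line with a FLAG-tagged full-length Proser1 inserted by PiggyBac and subcloned, so that clone and genotype cannot be told apart. The libraries of a group are described as biological replicates with no word on how the cultures were separated, so the p-values cover no more than the variation among these libraries, which may be technical. The columns of the table name the lines by code, which was read as KO and KO+Rescue, and the letters A and B below name the libraries.

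The respiratory chain passes electrons from NADH (complex I) and succinate (complex II) through coenzyme Q, complex III and cytochrome c to oxygen at complex IV, and complexes I, III and IV pump protons that drive ATP synthase, here called complex V. A few core subunits of each complex carry the cofactors or catalytic sites, while many small accessory subunits support assembly and stability, and most of both kinds are made from nuclear genes that must be matched with the subunits encoded by mitochondrial DNA. Naive mESC use both glycolysis and respiration, and cells that move to the primed state are known for lower respiration and more glycolysis. Nuclear respiratory chain genes are known targets of NRF1, of ETS factors such as GABP and of YY1.

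Promoter sequences of RefSeq (GRCm38.p6, the assembly that mm10 names), running from before a gene's start to just behind it, were matched by symbol for 66 of the 84 genes. The NRF1 motif CGCANGCG, searched on both strands, lay in 25 of the 66 (37.9%), against 9.22% of the 27025 genes with a promoter of the same length. The ETS motif CCGGAAG lay in 16 (24.2%, against 9.93%) and the YY1 motif AAGATGGC in 9 (13.6%, against 3.19%), and the AAG that ends the ETS motif also begins the YY1 motif, so these matches can overlap. At least 1 of the 3 motifs was found in 41 of the 66 promoters (62.1%, against 19.5% of all genes). These were 20 of 32 in complex I, 3 of 3 in II, 4 of 5 in III, 3 of 13 in IV and 11 of 13 in V. Complex IV held the fewest for its number. Its matched promoters include those of the tissue forms Cox6b2, Cox7a1, Cox7b2 and Cox8b, while those of Cox4i1 and Cox6c were not matched. The promoters held a median of 19 CpG sites, against 8 over all genes. The NRF1 and ETS motifs themselves contain CpG. The genes compared were all those with a promoter, expressed or not, and were not matched for CpG sites. A match is a description of letters and not a bound site.

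Promoters are shown for 6 genes that the results below turn on, each on its own strand with the motif in capitals. They are Uqcr10 (chr11:4704295-4704594, minus strand), with 1 NRF1 match, and Atp5j (chr16:84834927-84835226, minus strand, the second of 2 windows listed for it), with 1 match of each motif in the order NRF1, YY1 and ETS. The first Atp5j window (chr16:84835576-84835875, 43 CpG sites) held none of the 3. Atp5o (chr16:91931581-91931880, minus strand) held 1 NRF1 match, which lies on the opposite strand. Cox6b1 (chr7:30626065-30626364, minus strand), the general form of its subunit, held 1 ETS match, also on the opposite strand. Cox6b2 (chr7:4753045-4753344, minus strand), the testis form of the same subunit, and Cox7a1 (chr7:30183921-30184220, plus strand), the heart and muscle form of another, held none of the 3 motifs. CpG sites numbered 10 in Cox6b2 and 7 in Cox7a1, against 17 in Cox6b1.
Uqcr10: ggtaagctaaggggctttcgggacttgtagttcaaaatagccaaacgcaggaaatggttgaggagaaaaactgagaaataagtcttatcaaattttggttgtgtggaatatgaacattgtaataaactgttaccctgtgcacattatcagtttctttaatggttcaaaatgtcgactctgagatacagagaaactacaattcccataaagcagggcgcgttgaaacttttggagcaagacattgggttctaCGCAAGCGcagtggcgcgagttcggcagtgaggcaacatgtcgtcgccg
Atp5j: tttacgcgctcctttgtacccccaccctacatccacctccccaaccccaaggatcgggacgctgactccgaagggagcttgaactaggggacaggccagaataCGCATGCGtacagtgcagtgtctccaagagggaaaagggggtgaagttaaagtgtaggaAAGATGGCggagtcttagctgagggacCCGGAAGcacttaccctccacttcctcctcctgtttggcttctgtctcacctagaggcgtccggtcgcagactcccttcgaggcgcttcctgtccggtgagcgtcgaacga
Atp5o: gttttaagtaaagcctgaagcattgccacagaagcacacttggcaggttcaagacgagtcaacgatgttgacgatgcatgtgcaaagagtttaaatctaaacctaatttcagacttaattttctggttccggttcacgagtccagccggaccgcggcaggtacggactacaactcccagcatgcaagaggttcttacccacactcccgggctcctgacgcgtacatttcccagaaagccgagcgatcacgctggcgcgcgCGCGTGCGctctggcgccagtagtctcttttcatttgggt
Cox6b1: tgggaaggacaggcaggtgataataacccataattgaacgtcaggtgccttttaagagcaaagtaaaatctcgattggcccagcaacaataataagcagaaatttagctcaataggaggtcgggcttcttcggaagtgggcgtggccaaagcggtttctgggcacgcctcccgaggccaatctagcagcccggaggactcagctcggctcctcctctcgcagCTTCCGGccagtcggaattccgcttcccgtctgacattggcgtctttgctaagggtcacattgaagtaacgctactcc
Cox6b2: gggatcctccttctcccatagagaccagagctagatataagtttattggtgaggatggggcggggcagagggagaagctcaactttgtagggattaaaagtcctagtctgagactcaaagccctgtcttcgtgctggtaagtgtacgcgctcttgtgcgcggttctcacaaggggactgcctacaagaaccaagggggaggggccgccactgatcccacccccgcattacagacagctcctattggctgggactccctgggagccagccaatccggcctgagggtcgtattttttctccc
Cox7a1: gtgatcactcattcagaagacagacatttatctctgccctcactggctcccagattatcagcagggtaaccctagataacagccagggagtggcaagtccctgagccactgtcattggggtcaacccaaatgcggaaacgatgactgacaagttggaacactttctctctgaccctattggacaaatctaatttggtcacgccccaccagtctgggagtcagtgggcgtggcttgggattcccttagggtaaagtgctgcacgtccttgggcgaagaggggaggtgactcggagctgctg

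Whole reads (read pairs) could be recovered from the table, and the 12 libraries held 38634668 to 66450803 of them. Markers fitted the stages: the summed normalised count of 6 naive pluripotency genes was 3484 to 5315 at day 2, against 64276 to 79820.5 in mESC. That of 4 formative and primed genes was 54854 to 90905, against 7249.9 to 12115. The early neuroectoderm genes Sox1 and Pax6 summed to only 84.8 to 336 at day 2, against 73.5 to 92.6 in mESC. They differed between the genotypes at day 2. Sox1 was at 181 and 178 in KO+Rescue, 140 and 154 in KO and 44.2 and 37.0 in WT. Pax6 was at 104 and 87.4, 118 and 182 and 56.3 and 47.8 in the same order. Proser1 stood at 2994 and 3041 at day 2 and 2828 and 3089.8 in mESC in KO+Rescue, which is above every KO and WT library, whereas KO (502 to 1067) overlapped WT (550.5 to 889). A small edit in exon 1 need not remove the RNA, so its level does not check the KO label.

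The 84 genes together took 2.25% and 2.55% of all reads in KO+Rescue mESC, 2.18% and 2.38% in KO mESC and 1.74% and 1.95% in WT mESC, and 1.79% and 1.82%, 1.74% and 1.80% and 1.45% and 1.65% in the same order at day 2. All KO+Rescue and KO libraries thus lay above both WT libraries of their stage. The libraries of a group differed as well. On the log2 scale, the median deviation of the 83 tested genes from their means over all libraries was 0.39 and 0.92 in libraries A and B of KO+Rescue mESC, 0.26 and 0.56 in KO and -0.36 and 0.07 in WT. In mESC the WT library A was the lowest of 6 for 72 of the 83 genes and KO+Rescue library B the highest for 66, and at day 2 WT library A was the lowest for 66 and KO+Rescue library B the highest for 42. The share of reads in 79 ribosomal protein genes, which are short and abundant like most of the respiratory chain genes, followed the same order within each stage. Between the stages it did not: KO+Rescue day 2 library B had 19.6% at a deviation of -0.04, and WT mESC library B had 16.3% at 0.07. The share was 13.1% and 12.7% in the WT libraries A of mESC and day 2, 23.8% in KO+Rescue mESC library B, and 16.1 to 20.1% in the other 9. Its part in the results below was not tested. Marker levels differed between the genotypes as well. In mESC the 2 mesendoderm genes T and Eomes summed to 780.0 and 842 in KO+Rescue, 727 and 797 in KO and 1478 and 1496 in WT. The 4 fibroblast genes, mainly Thy1, summed to 97.9 and 140.1 in KO+Rescue, 136 and 166 in KO and 352 and 409 in WT. Thy1 alone was at 113 and 74.8, 118 and 111 and 362 and 316 in the same order. Of the 3 collagens, Col1a1 and Col1a2 overlapped between KO and WT and were lower in KO+Rescue than in WT, and Col3a1 was at 1.19 to 2.70. The 6 naive genes summed to 77181 and 79820.5, 75522 and 77956 and 64276 and 65886 in the same order. Nanog was the largest part of the naive sum, and Nanog and Zfp42 lay above WT in both KO+Rescue and KO. Esrrb, Klf4 and Tfcp2l1 overlapped WT in both, and Dppa3 lay above WT in KO only. At day 2 T and Eomes summed to 73.3 and 96.2 in KO+Rescue, 385 and 400 in KO and 100.0 and 148 in WT. The fibroblast sums were 530.3 and 565, 1067 and 1237 and 849 and 969 in that order. The naive sums were 3484 and 3557, 3749 and 3879 and 3863 and 5315. Esrrb and Dppa3 then lay below WT in both KO+Rescue and KO. Nanog lay above WT and Zfp42 below it in KO only, and Klf4 and Tfcp2l1 overlapped WT in both. No gene of these lists was at 0 in a group, and their part in the results was not tested either. In bulk RNA, fewer cells of a type and less RNA per cell cannot be told apart.

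**Figure D1:**
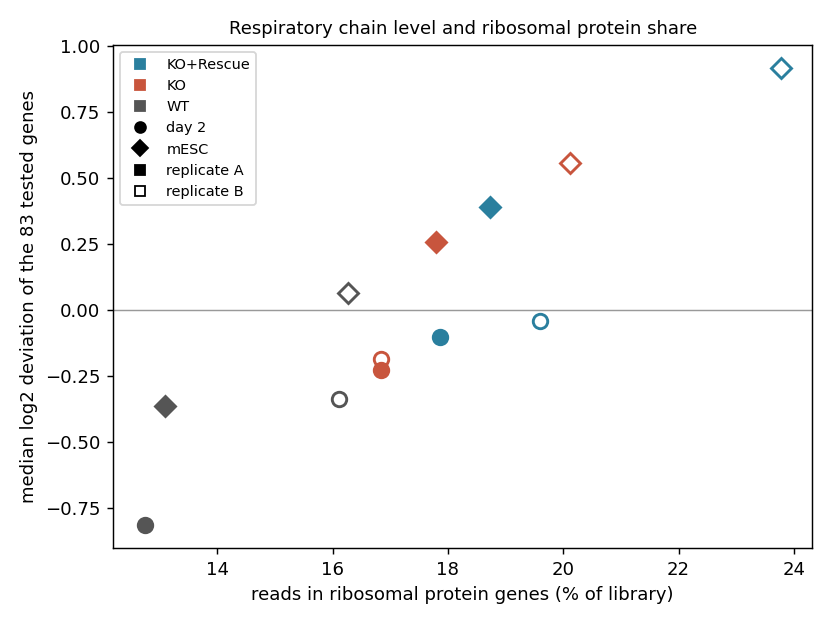
Percent of reads in 79 ribosomal protein genes (x axis) and the median log2 deviation of the 83 tested respiratory chain genes from their own means (y axis), with 1 symbol per library, filled for A and open for B, circles for day 2 and diamonds for mESC. The WT libraries A lie at the lower left with -0.82 at day 2 and -0.36 in mESC, and KO+Rescue mESC library B lies at the upper right with 0.92.

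Levels per kilobase of transcript spanned a wide range. In WT mESC, Atp5b, the catalytic beta subunit of ATP synthase, was the highest at 62557 normalised counts per kilobase, followed by Cox4i1, a nuclear subunit of complex IV, at 61517, Cox7c at 38978 and Atp5g3, which encodes the membrane subunit c, at 36705. The lowest were tissue forms, such as Cox7b2 at 32.4, Cox8c at 28.0, Ndufa4l2 at 5.78 and Cox6a2, which had no read. In KO+Rescue mESC and KO mESC Cox4i1 was at 133771 and 108278 per kilobase, above Atp5b at 63378 and 66938. These are group means of 2 libraries, and lengths were those of the canonical transcript in GENCODE, so a gene read mostly from another form is over- or understated.

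KO+Rescue mESC had more RNA of most respiratory chain genes than WT mESC. By limma with Benjamini-Hochberg adjustment over 15341 genes, 59 of the 83 were higher in KO+Rescue and 0 were lower, a share of 71.1% beside 9.15% of all tested genes called higher. The median log2 difference was 0.80, against -0.06 over all tested genes. By complex the median was 0.90 in complex I, 0.38 in complex II, 0.84 in complex III, 0.82 in complex IV and 0.78 in complex V, and 30 of 37, 2 of 4, 7 of 8, 10 of 17 and 10 of 17 genes passed. Both KO+Rescue libraries lay above both WT libraries in 70 of the 83 genes and below them in 2, beside 26.9% and 31.3% of all tested genes. The count rested on single libraries: it was 1 without WT library A and 1 without KO+Rescue library B, and 63 without WT library B or without KO+Rescue library A.

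**Figure D2:**
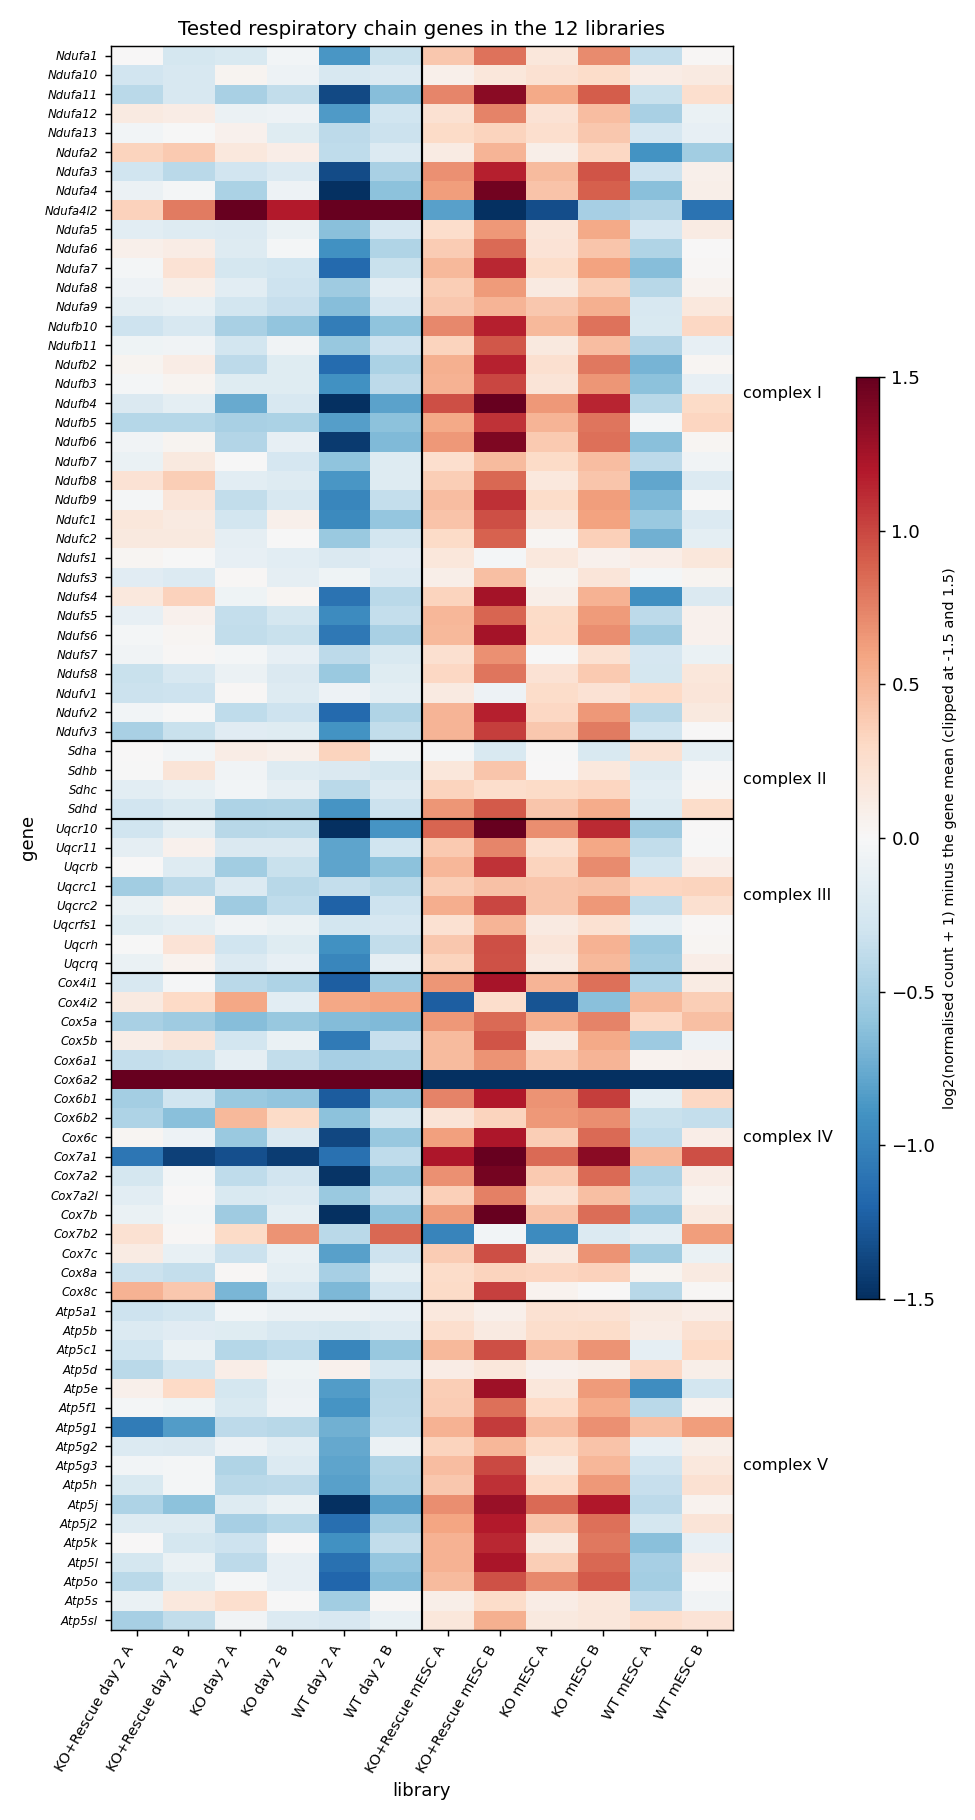
Log2 deviation of 82 of the 83 tested genes (rows, by complex) from their means over the 12 libraries (columns, day 2 left of mESC and within a stage KO+Rescue, KO and WT), cut at 1.5 in either direction. Most rows are low in WT at day 2 and high in KO+Rescue mESC, and WT library A is the lowest of its stage for 72 of the 83 genes in mESC and 66 at day 2.

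In complex I the 4 largest differences that passed were those of Ndufb4, Ndufs4, Ndufb6 and Ndufa4. Genes named for the size of their change, here and below, were picked among called genes whose groups did not overlap. Ndufb4, an accessory subunit of the membrane arm, had normalised counts of 5602 and 9287 in KO+Rescue, against 2152 and 3489 in WT mESC. The groups did not overlap, and the log2 difference was 1.40 ± 0.38 (SE, 2.63-fold, adjusted p = 0.0269). Ndufs4, an accessory subunit whose loss causes Leigh syndrome in humans, had 10879.9 and 20590.4 in KO+Rescue, against 4583 and 7436 in WT, again without overlap, a difference of 1.36 ± 0.30 (adjusted p = 0.0145). Ndufb6, another membrane arm subunit, had 10758 and 18083 in KO+Rescue, against 4439.6 and 6998 in WT (1.32 ± 0.29, adjusted p = 0.0136). Ndufa4, counted here with complex I, had 25059.9 and 44290.3 in KO+Rescue, against 10472 and 17257 in WT (1.31 ± 0.33, adjusted p = 0.0224). In all 4 genes KO+Rescue library B was the higher of its pair and WT library A the lower, and each missed the threshold when either of these libraries was left out, with adjusted p of 0.125 to 0.254.

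Of the core subunits of complex I, Ndufs1 and Ndufv1 were followed in every library. Ndufs1, the largest core subunit and a carrier of iron-sulfur clusters, had 10333 and 9015 in KO+Rescue, 10276 and 9584 in KO, and 9831 and 10359.7 in WT mESC. Ndufv1, which binds NADH and FMN, had 7779.6 and 6705 in KO+Rescue, 8603 and 8247 in KO, and 8716 and 8055 in WT mESC. Neither gene passed in any comparison between genotypes at either stage, with log2 differences between KO+Rescue and WT mESC of -0.06 ± 0.12 and -0.21 ± 0.12 (adjusted p = 0.726 and 0.235). Another core subunit, Ndufv2, named after its values were seen, had 22024 and 34552 in KO+Rescue, against 11531 and 17096 in WT mESC and passed without overlap (0.97 ± 0.26, adjusted p = 0.0255).

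Complex II had the lowest median of the 5 complexes, 0.38. With the length trend removed its median was 0.43, above those of complexes I, IV and V (0.29, 0.11 and 0.41). Sdha, the flavoprotein that oxidises succinate, had 7369.7 and 6420.0 in KO+Rescue, 7504 and 6439.6 in KO, and 8817 and 6793 in WT mESC, and all 3 groups overlapped. Sdhb, its iron-sulfur partner, had 6734 and 7962 in KO+Rescue, 6023 and 6692 in KO, and 5242 and 5941 in WT mESC, and its difference between KO+Rescue and WT missed the threshold (0.39 ± 0.13, adjusted p = 0.0561) and passed with the length trend removed (0.51, adjusted p = 0.0232). The membrane anchors Sdhd and Sdhc, named after their values were seen, were higher in KO+Rescue by 0.75 ± 0.19 and 0.37 ± 0.12 (adjusted p = 0.0242 and 0.0461). Sdhd had 29874 and 35682 in KO+Rescue, against 16518 and 22895 in WT, with no overlap.

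In complex III, Uqcr10, a small subunit of the cytochrome bc1 complex, showed the largest difference between KO+Rescue and WT mESC of all 83 genes. Its normalised counts were 26713 and 41542 in KO+Rescue, 23805 and 31851 in KO, and 10126 and 14694 in WT mESC. All KO+Rescue and KO values lay above the WT values, and KO+Rescue and KO overlapped. The log2 difference between KO+Rescue and WT was 1.45 ± 0.25 (2.73-fold, adjusted p = 0.00568), and it missed the threshold narrowly without WT library A (adjusted p = 0.0562) or KO+Rescue library B (adjusted p = 0.0692). Uqcrc1, a core protein that faces the matrix, had 20505 and 21614 in KO+Rescue, 21234 and 21558 in KO, and 19896 and 20117 in WT mESC and did not pass (0.07 ± 0.12). Uqcrfs1, the Rieske iron-sulfur protein, had 8523 and 10350.4 in KO+Rescue, 7988 and 8486 in KO, and 6726 and 7375 in WT mESC, with all KO+Rescue values above all KO and WT values, and passed against WT (0.42 ± 0.12, adjusted p = 0.0361).

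In complex IV, Cox4i1 had 84452 and 125033 in KO+Rescue, 75678 and 93886 in KO, and 38417 and 57918 in WT mESC. KO+Rescue and KO overlapped and both lay above WT, and the difference between KO+Rescue and WT was 1.12 ± 0.27 (adjusted p = 0.0178). Cox5a, a matrix-side subunit, had 15256 and 17526 in KO+Rescue, 14154 and 16222 in KO, and 12034 and 13294 in WT mESC, and its difference of 0.37 ± 0.12 missed the threshold (adjusted p = 0.0554). The genes of this complex that passed were the general forms Cox4i1, Cox5b, Cox6a1, Cox6b1, Cox6c, Cox7a2, Cox7b and Cox7c, together with Cox7a2l, which is known to join complexes III and IV, and the testis form Cox6b2. Of the low tissue forms Cox4i2, Cox7b2 and Cox8c, none passed.

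In ATP synthase, Atp5e, the small epsilon subunit of the rotor, had 17671 and 32987 in KO+Rescue, 15282 and 21252 in KO, and 7138 and 11243 in WT mESC. KO+Rescue exceeded WT by 1.43 ± 0.28 (2.70-fold, adjusted p = 0.00921) with no overlap, and the adjusted p was 0.0894 without WT library A and 0.109 without KO+Rescue library B. The alpha and beta subunits, which form the catalytic hexamer, lay close together in the mESC groups: Atp5a1 had 75344 and 71283 in KO+Rescue, 78949 and 78459.6 in KO, and 73903 and 72502 in WT mESC. Atp5b had 127079 and 117051 in KO+Rescue, 128085 and 129761 in KO, and 115444 and 125527 in WT mESC. Their differences between KO+Rescue and WT were 0.00 ± 0.15 and 0.02 ± 0.17 (adjusted p = 0.996 and 0.951). In a split chosen after the values were seen, the 5 genes of the catalytic head and rotor (F1) had a median of 0.02 with 2 called higher, and the 10 genes of the membrane part and stalk (Fo) a median of 0.86 with 8 called. The Fo transcripts are shorter (median 1044 bases, against 1780.0 for F1), and with the length trend removed their median was 0.45 with 5 called higher and 1 lower, against -0.01 with 2 higher for F1. At day 2 Atp5a1 had 54361 and 55760 in KO+Rescue, below both other groups, and was not called against either. It had 65297 and 63662 in KO and 63645 and 61735 in WT at day 2.

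**Figure D3:**
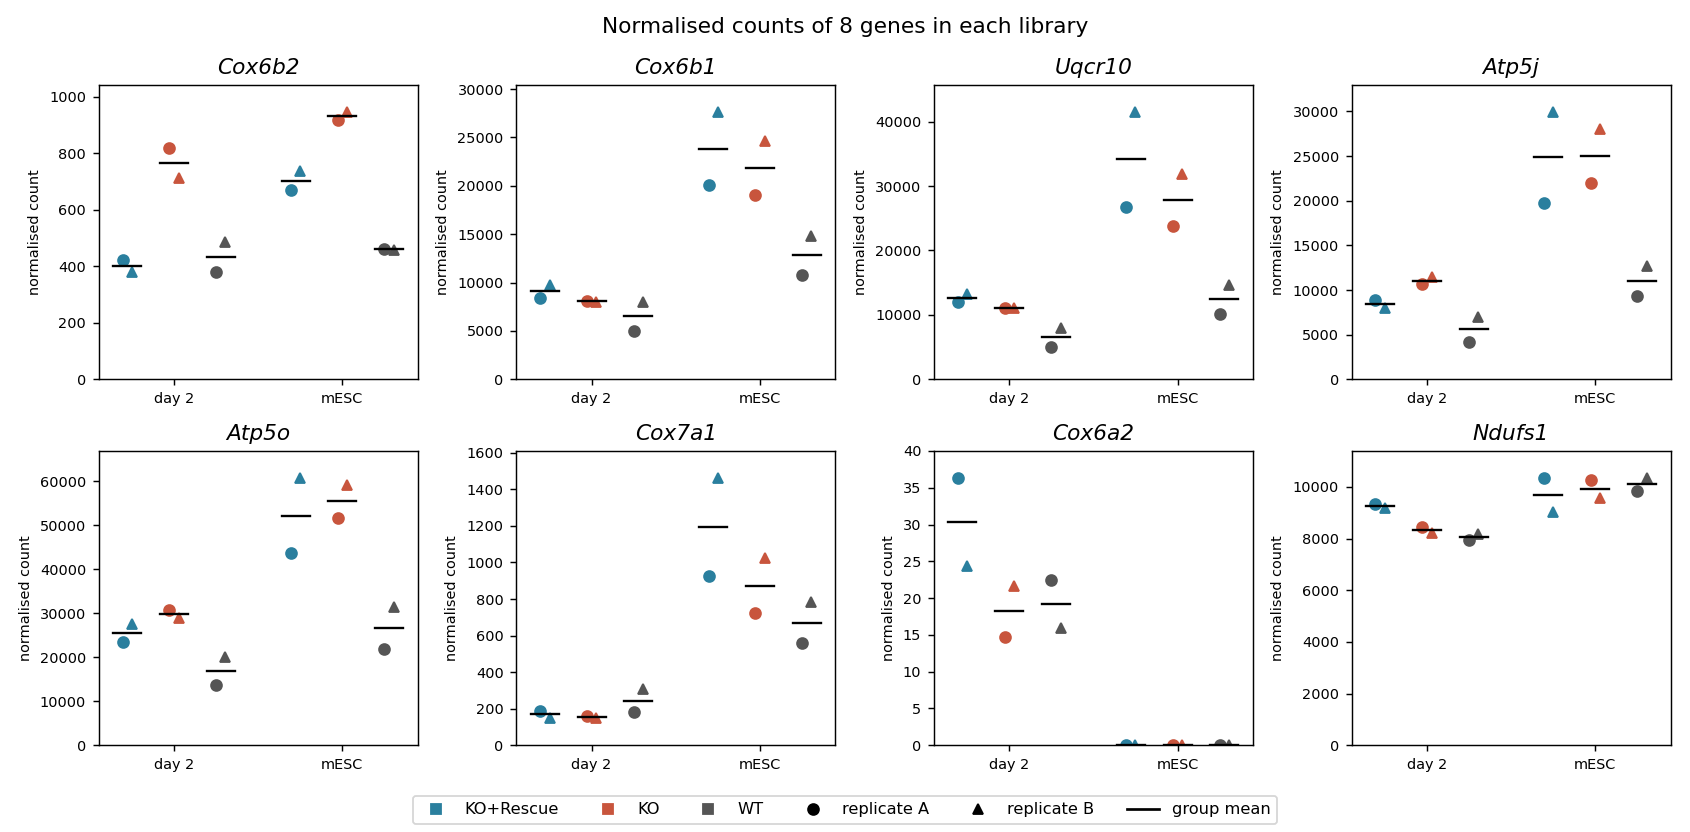
Normalised counts per library (linear axes from 0) of 8 genes in KO+Rescue, KO and WT at day 2 (left) and in mESC (right), with circles for library A, triangles for B and bars for the group mean. Uqcr10, Atp5j and Atp5o are lowest in WT at each stage, Cox6b2 is highest in KO, Cox6a2 is at 0 in every mESC library, Cox7a1 is lower at day 2 in each genotype, and Ndufs1 overlaps between the genotypes in mESC.

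At day 2 the same comparison gave fewer calls. Of the 83 genes, 11 were higher in KO+Rescue than in WT and 0 were lower, 13.3% beside 3.9% of all tested genes called higher, with a median difference of 0.52 against -0.03 over all genes. By complex the median was 0.56 in complex I, 0.25 in complex II, 0.57 in complex III, 0.52 in complex IV and 0.52 in complex V. The calls were 8 in complex I, 1 in complex III and 2 in complex IV, and none fell in complexes II and V. The largest was Ndufb4 with 2472 and 2598 in KO+Rescue, against 643 and 1648 in WT (1.3 ± 0.38, adjusted p = 0.0435). Ndufb6 had 6582 and 7052 in KO+Rescue, against 2529 and 4323 in WT (1.04 ± 0.29, adjusted p = 0.0371) and Ndufs4 had 9619 and 11013 in KO+Rescue, against 4012 and 6525 in WT (1.01 ± 0.30, adjusted p = 0.0488). The WT library A was the lower of its pair in each. Uqcr10 had 11946 and 13270.3 in KO+Rescue, against 5031 and 7957 in WT (0.99 ± 0.25, adjusted p = 0.0265). Cox6c, a small membrane subunit of complex IV, had 10898 and 10101 in KO+Rescue, against 4125 and 7199 in WT (0.94 ± 0.27, adjusted p = 0.0416). Ndufc1, a small membrane subunit of complex I, had 2733 and 2667 in KO+Rescue, against 1248 and 1627 in WT (0.92 ± 0.21, adjusted p = 0.0161). None of these groups overlapped, which was a condition for naming these genes. No gene of the 83 was called without WT library A, without KO+Rescue library A or without KO+Rescue library B, and 42 were called without WT library B.

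KO against WT asks what loss of PROSER1 does. In mESC, 11 of the 83 genes were higher in KO and 0 were lower, 13.3% beside 3.23% of all tested genes called higher, and the median difference was 0.60 against -0.04 over all genes. Both KO libraries lay above both WT libraries in 70 of the 83 genes and below them in 3, beside 27.3% and 31.6% of all tested genes. By complex the median was 0.61 in complex I, 0.28 in complex II, 0.60 in complex III, 0.51 in complex IV and 0.48 in complex V, with 6 calls in complex I, 1 in complex III, 1 in complex IV, 3 in complex V and none in complex II. With the length trend removed, Sdhc of complex II was called higher in KO mESC (0.43, adjusted p = 0.0256). At day 2, 3 genes were higher in KO (Atp5j, Atp5o and Cox6b2) and 0 were lower, 3.61% beside 1.57%, with a median of 0.33 against 0.02 over all genes. In mESC the count was 2 without WT library A, 54 without WT library B, 8 without KO library A and 1 without KO library B. At day 2 it was 0 without WT library A or without KO library A, 14 without WT library B and 1 without KO library B.

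**Figure D4:**
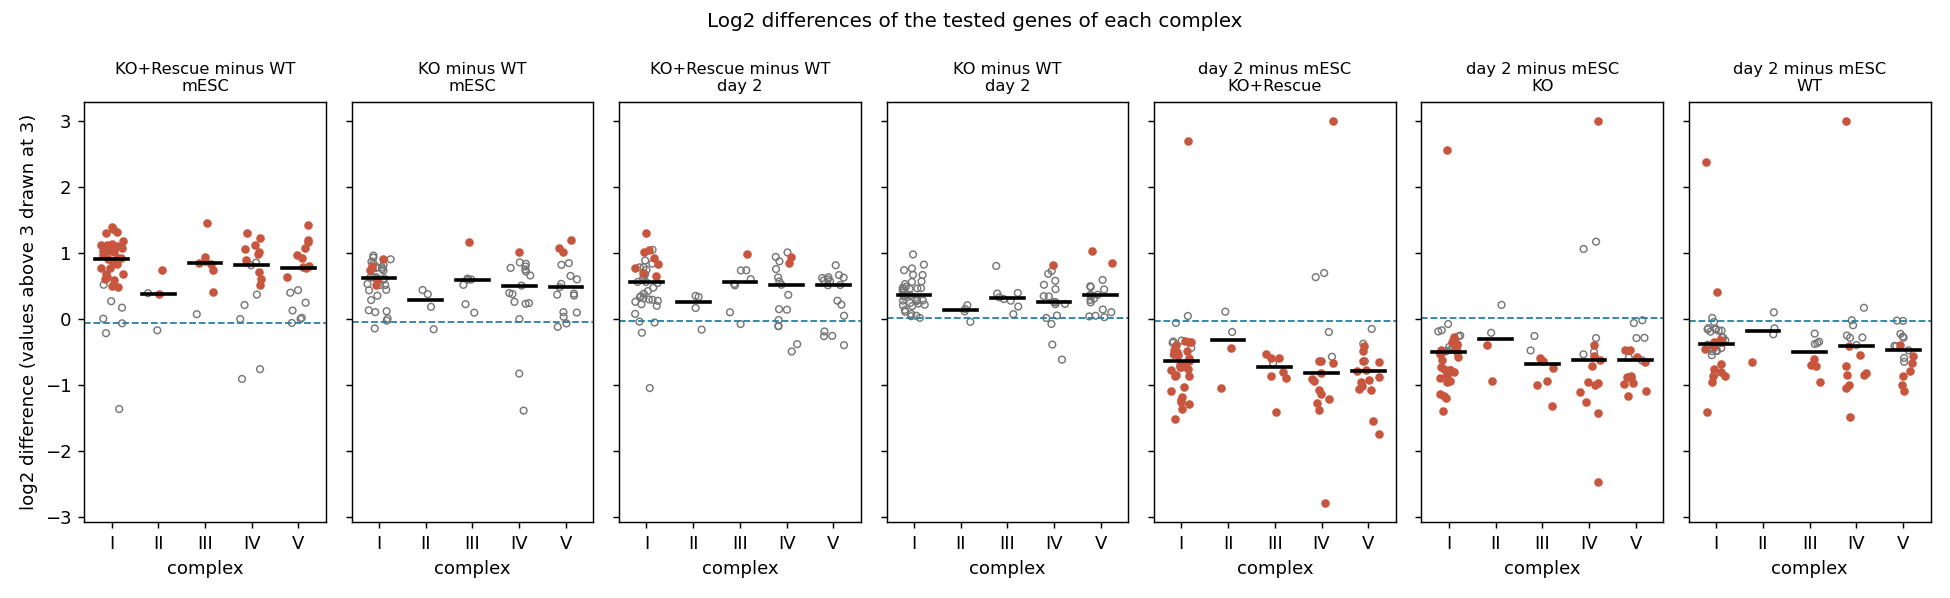
Log2 differences of the 83 tested genes, grouped by complex on the x axis, in 7 comparisons, with filled points for genes called at an adjusted p under 0.05 (values above 3 are drawn at 3), open points for the others, a black bar for the median of the complex and a dashed line for the median of all tested genes. In the comparisons with WT the medians of complexes I, III, IV and V lie above that of complex II (0.38 in KO+Rescue against WT mESC, or 0.43 and above I, IV and V with the length trend removed, when it also lies above IV in both comparisons at day 2), and between day 2 and mESC all 5 medians lie below 0, though that of complex II turns to 0.05, 0.04 and 0.05 in KO+Rescue, KO and WT with libraries scaled to equal totals.

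The largest differences called in KO mESC were those of Atp5j, Uqcr10 and Atp5o. Atp5j, coupling factor F6 in the stalk of ATP synthase, had 19804 and 29976 in KO+Rescue, 21991 and 28056 in KO, and 9308 and 12695 in WT mESC. At day 2 it had 8836 and 7976 in KO+Rescue, 10723 and 11408 in KO, and 4200.4 and 7018 in WT. KO exceeded WT without overlap at both stages, by 1.19 ± 0.25 in mESC (2.28-fold, adjusted p = 0.0108) and 1.03 ± 0.25 at day 2 (2.04-fold, adjusted p = 0.0305). Atp5o, the stalk subunit OSCP that holds the catalytic head, had 43613 and 60856 in KO+Rescue, 51769.7 and 59184 in KO, and 21968 and 31385 in WT mESC. At day 2 it had 23574 and 27649.9 in KO+Rescue, 30660.1 and 28852 in KO, and 13713 and 20082 in WT. It was higher in KO by 1.08 ± 0.22 (adjusted p = 0.0114) in mESC and by 0.84 ± 0.22 (adjusted p = 0.0483) at day 2, again without overlap. Uqcr10, with the values given above, was higher in KO mESC by 1.17 ± 0.25 (2.26-fold, adjusted p = 0.0134) and stood at 11015 and 11083 in KO, against 5031 and 7957 in WT at day 2. There the difference of 0.80 ± 0.25 missed the threshold (adjusted p = 0.0938). Without KO library B in mESC, Atp5j, Atp5o and Uqcr10 all missed it, with adjusted p of 0.108 to 0.144, and without WT library A with 0.0997 to 0.124. At day 2 Atp5j and Atp5o missed it without WT library A, without KO library A and without KO library B. They also missed it there with no filter (adjusted p = 0.0687 and 0.106) and in a fit of the groups compared alone (0.0661 and 0.0872), and Atp5o with a pseudocount of 0.5 (adjusted p = 0.0509).

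Ndufa2, an accessory subunit of the complex I matrix arm, had 4299.7 and 5633 in KO+Rescue, 4193 and 4914 in KO, and 2118 and 2755 in WT mESC, with KO and KO+Rescue above WT. KO exceeded WT by 0.91 ± 0.16 (1.88-fold, adjusted p = 0.00453), and without KO library B the adjusted p was 0.0622. Atp5e, with the values given above, was higher in KO by 1.01 ± 0.28 (adjusted p = 0.0414) and missed the threshold without WT library A, KO library A or KO library B (0.0608 to 0.307). The other 5 calls, named after their values were seen, were all in complex I: Ndufb3, Ndufc1, Ndufv3, Ndufb7 and Ndufa13, with differences of 0.80, 0.77, 0.74, 0.60 and 0.51. Of the 10 main subunits followed in every library (Ndufs1, Ndufv1, Sdha, Sdhb, Uqcrc1, Uqcrfs1, Cox4i1, Cox5a, Atp5a1 and Atp5b), none passed between KO and WT at either stage, and Cox4i1 came nearest in mESC (0.84 ± 0.27, adjusted p = 0.0653). With the length trend removed, Cox4i1 passed in mESC (0.47, adjusted p = 0.0436).

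Cox6b2, the testis form of complex IV subunit 6B, was the only one of the 83 genes that passed in KO against WT at both stages and in KO+Rescue against KO. In mESC it had normalised counts of 668 and 737 in KO+Rescue, 917 and 947 in KO, and 462 and 457 in WT. At day 2 it had 422 and 379 in KO+Rescue, 817 and 712 in KO, and 380.1 and 488 in WT. In mESC the 3 groups did not overlap and KO was highest. At day 2 both KO libraries lay above the other 4, and KO+Rescue overlapped WT. KO exceeded WT by 1.02 ± 0.15 in mESC (2.02-fold, adjusted p = 0.00183) and by 0.82 ± 0.15 at day 2 (1.77-fold, adjusted p = 0.00767). KO+Rescue fell below KO by 0.93 ± 0.15 at day 2 (1.91-fold lower, adjusted p = 0.0105), while in mESC the difference of -0.41 ± 0.15 missed the threshold (adjusted p = 0.253). Against WT, KO+Rescue was higher in mESC (0.61 ± 0.15, adjusted p = 0.0223) and did not pass at day 2 (-0.11 ± 0.15, adjusted p = 0.691). Without either WT library A or KO library A at day 2 the KO difference had an adjusted p of 0.0556 and 0.104, and without any 1 of the 4 libraries the KO+Rescue difference had 0.0634 to 0.171. With the length trend removed, the KO difference was 0.55 in mESC and 0.51 at day 2 and missed the threshold (adjusted p = 0.0657 and 0.116), while KO+Rescue against KO at day 2 was -1.05 and passed (adjusted p = 0.00841).

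Set against the general form, Cox6b2 stayed the minor transcript. Per kilobase it reached 5.5% and 4.24% of Cox6b1 in KO+Rescue at day 2, 11% and 9.80% in KO and 8.28% and 6.72% in WT, so the 3 groups did not overlap. In mESC the percentages were 3.65 and 2.92 in KO+Rescue, 5.26 and 4.21 in KO and 4.68 and 3.37 in WT, where KO overlapped WT and KO+Rescue overlapped WT. Both genes have short transcripts (600 and 658 bases).

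Atp5j (chromosome 16, 84827871 to 84835857 in GRCm38) and Atp5o (chromosome 16, 91925223 to 91931630) lie on distal chromosome 16. The 38 tested genes between them had a median KO against WT difference of 0.37 in mESC and 0.51 at day 2, with 32 and 36 above 0. Of the 38, 12 and 11 were called higher and 0 lower, beside 3.23% and 1.57% of all tested genes called higher. By contrast, the 376 tested genes before Atp5j had medians of 0.03 and 0.01, with 17 and 9 called higher and 13 and 19 lower. Both subunits thus moved in the direction of their neighbours in the KO line, by 1.19 and 1.08 in mESC, and the part of the region in their difference was not tested. In KO+Rescue against KO the 38 genes had medians of -0.28 in mESC and -0.25 at day 2, and Atp5j and Atp5o did not pass (-0.03 ± 0.25 and -0.10 ± 0.22 in mESC, -0.40 ± 0.25 and -0.22 ± 0.22 at day 2). Gabpa, a subunit of the ETS factor GABP, lies in the same interval and differed between KO and WT by 0.22 ± 0.14 in mESC (adjusted p = 0.289) and 0.50 ± 0.14 at day 2 (adjusted p = 0.0546), which missed the threshold. The third gene of the set on this chromosome, Ndufb4 (37647602 to 37654368), lies far from both and was not called in KO (0.96 ± 0.38 in mESC, adjusted p = 0.119, and 0.98 ± 0.38 at day 2, adjusted p = 0.179).

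On chromosome 11 the set holds Uqcr10, Uqcrq, Atp5g1 and Atp5h. Uqcr10 at 4701968 to 4704344 was called in KO mESC. Uqcrq, a small complex III subunit, Atp5h, the stalk subunit d, and Atp5g1 had KO differences in mESC of 0.52 ± 0.28, 0.53 ± 0.23 and 0.03 ± 0.18, and none of the 3 passed (adjusted p = 0.225, 0.157 and 0.911). With the length trend removed, Atp5g1 was called lower in KO mESC (-0.43, adjusted p = 0.0276). The 3 genes for subunit c, which encode the same mature protein, were read separately. Atp5g1 had 5753 and 6667 in KO+Rescue, 9066 and 8942 in KO, and 7255 and 9144 in WT at day 2, with KO+Rescue below the other groups. In mESC it had 17162 and 24789.7 in KO+Rescue, 16520.4 and 19154 in KO, and 16379.5 and 18415 in WT. Atp5g2 and Atp5g3 did not pass in KO (adjusted p = 0.193 and 0.248 in mESC), and Atp5g3 was higher in KO+Rescue than in WT mESC (0.80 ± 0.22, adjusted p = 0.0277).

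KO+Rescue against KO asks whether Proser1 put back into the KO line changes these genes. In mESC, 0 of the 83 were called, beside 1.51% of all tested genes, 2 had an unadjusted p under 0.05, and edgeR and DESeq2 called 0 as well. The median difference was 0.22, against 0.03 over all genes. At day 2, 1 gene was lower (Cox6b2) and 0 were higher, beside 1.33% of all genes called lower, and the median was 0.15 against -0.02. Both KO+Rescue libraries lay above both KO libraries in 46 of the 83 genes at day 2 and below them in 19, beside 28.7% and 32.2% of all tested genes. In mESC these numbers were 8 and 5, beside 23.4% and 22.1%. No gene was called at day 2 when any 1 of the 4 libraries was left out. For Uqcr10, Atp5e and Ndufa2, called in KO against WT mESC, the differences between KO+Rescue and KO mESC were 0.27 ± 0.25, 0.42 ± 0.28 and 0.12 ± 0.16. The 2 comparisons KO+Rescue against WT and KO against WT share their WT libraries, among them library A.

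Respiratory chain genes were lower at day 2 than in mESC, most of them in KO+Rescue and KO and fewer by the test in WT. In KO+Rescue 64 of the 83 were lower at day 2 and 2 higher, in KO 56 and 2, and in WT 33 and 3, beside 29.1%, 28.7% and 25.3% of all tested genes called lower in KO+Rescue, KO and WT. The median change was -0.69, -0.58 and -0.40, against -0.03, 0.02 and -0.02 over all genes. In 31 genes the fall was called in all 3 genotypes, in 76 the change was below 0 in all 3. Over all tested genes these shares were 19.1% and 40.9%. The fall was called in none for 16 of the 83 genes, beside 63.5% of all tested genes. Markers of other cells moved with the stage as well: 4 fibroblast genes summed to 530.3 to 1237 normalised counts at day 2, against 97.9 to 409 in mESC. The 3 collagens among them summed to 53.5 to 223, against 23.2 to 48.2, and their part in the change was not tested. The numbers called in either direction (66, 58 and 36 in KO+Rescue, KO and WT) moved with single libraries. They came in KO+Rescue to 33 without mESC library B, 39 without day 2 library A and 44 without day 2 library B. In KO they came to 20 without mESC library B, 30 without day 2 library A and 32 without day 2 library B. In WT they came to 14 without mESC library B or day 2 library A and to 47 and 51 without mESC library A or day 2 library B.

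By complex the median change at day 2 was -0.63 in complex I, -0.32 in complex II, -0.73 in complex III, -0.81 in complex IV and -0.79 in complex V in KO+Rescue. In KO it was -0.50 in complex I, -0.30 in complex II, -0.69 in complex III, -0.63 in complex IV and -0.63 in complex V. In WT it was -0.37 in complex I, -0.19 in complex II, -0.49 in complex III, -0.41 in complex IV and -0.47 in complex V. Complex II had the median nearest to 0 in each genotype. With the length trend removed this was no longer so, since it was -0.39 in KO+Rescue, -0.37 in KO and -0.21 in WT, against -0.22, -0.25 and -0.23 in complex I and -0.30, -0.26 and -0.16 in complex IV. When libraries were scaled to equal totals, which raised the median of all genes by 0.37, 0.34 and 0.23 in KO+Rescue, KO and WT, its median turned to 0.05, 0.04 and 0.05. In complex II the calls lay in the membrane anchors: Sdhd fell by 1.05 ± 0.19, 0.94 ± 0.19 and 0.65 ± 0.19 in KO+Rescue, KO and WT (adjusted p = 0.000505, 0.0011 and 0.013), while Sdha had changes of 0.11, 0.21 and 0.10 and Sdhb of -0.20, -0.21 and -0.14, and none of these passed.

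Cox7a1, the heart and muscle form of complex IV subunit 7A, fell most. Its normalised counts were 188 and 150.3 at day 2 against 927 and 1464 in mESC in KO+Rescue, 160.3 and 148 at day 2 against 723 and 1024 in mESC in KO, and 183 and 306 at day 2 against 559.5 and 782 in mESC in WT. The stages did not overlap in any genotype, and the log2 changes were -2.79 ± 0.28, -2.47 ± 0.28 and -1.48 ± 0.28 in KO+Rescue, KO and WT (adjusted p = 2.94e-06, 8.08e-06 and 0.000732). Per kilobase it made up 2.69% and 1.82% of its general form Cox7a2 in KO+Rescue at day 2, 2.48% and 2.15% in KO and 6.02% and 5.41% in WT, against 6.44 to 9.19% in the 6 mESC libraries. At day 2 it had 188 and 150.3 in KO+Rescue, 160.3 and 148 in KO, and 183 and 306 in WT, so that both KO libraries lay below WT and KO+Rescue overlapped WT. These differences from WT were -0.49 ± 0.28 in KO+Rescue and -0.61 ± 0.28 in KO and did not pass (adjusted p = 0.272 and 0.267). With the length trend removed both passed, at -0.94 (adjusted p = 0.00366) and -0.96 (adjusted p = 0.00398).

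Cox5a had 6924 and 6696 at day 2 against 15256 and 17526 in mESC in KO+Rescue, 6229 and 6516 at day 2 against 14154 and 16222 in mESC in KO, and 6157 and 6117 at day 2 against 12034 and 13294 in mESC in WT. The fall was close to 1 log2 unit in each genotype (-1.26 ± 0.12, -1.25 ± 0.12 and -1.04 ± 0.12, adjusted p = 2.31e-06, 2.4e-06 and 1.61e-05), with no overlap. Cox6b1 had 8426 and 9788 at day 2 against 20051 and 27662 in mESC in KO+Rescue, 8139 and 7973 at day 2 against 19096 and 24663 in mESC in KO, and 5036 and 7961 at day 2 against 10826 and 14853 in mESC in WT. It changed by -1.37 ± 0.23, -1.43 ± 0.23 and -1.0 ± 0.23. Atp5g1 had 5753 and 6667 at day 2 against 17162 and 24789.7 in mESC in KO+Rescue, 9066 and 8942 at day 2 against 16520.4 and 19154 in mESC in KO, and 7255 and 9144 at day 2 against 16379.5 and 18415 in mESC in WT. It fell furthest in KO+Rescue (-1.74 ± 0.18, -0.98 ± 0.18 and -1.09 ± 0.18 in KO+Rescue, KO and WT), and the test of the difference between the KO+Rescue and KO changes missed the threshold (-0.75 ± 0.25, adjusted p = 0.357). With the length trend removed, Atp5g1 was lower in KO+Rescue than in KO at day 2 (-0.65, adjusted p = 0.00841), which was not so in the uncorrected fit (-0.54 ± 0.18, adjusted p = 0.147).

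Further large falls were seen in Uqcr10 (-1.40, -1.32 and -0.95 in KO+Rescue, KO and WT), Atp5j (-1.54, -1.17 and -1.0), Ndufb10, a membrane arm subunit (-1.22, -1.19 and -0.86) and Ndufb4 (-1.51, -1.39 and -1.41), all of them called in each genotype. Ndufb4 missed the threshold in KO+Rescue and KO without mESC library B, in KO without day 2 library A and in WT without mESC library B or day 2 library A (adjusted p = 0.0565 to 0.0779). Among the same main subunits, Uqcrc1 fell in all 3 genotypes (-0.87, -0.74 and -0.72), as did Ndufv1 (-0.34, -0.34 and -0.35) and Cox4i1 (-1.08, -1.10 and -0.71). Atp5a1 and Uqcrfs1 passed in KO+Rescue only (-0.41 and -0.53), Atp5b in KO only (-0.48) and Ndufs1 in WT only (-0.32), and no interaction of stage with genotype passed for KO against WT or KO+Rescue against KO.

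The members that rose at day 2 in each genotype were low tissue forms. Cox6a2, the heart and muscle form of complex IV subunit 6A, had 36.4 and 24.4 normalised counts in KO+Rescue, 14.8 and 21.7 in KO and 22.4 and 15.9 in WT at day 2, and no read in any of the 6 mESC libraries. Against a floor of 3 reads in each mESC library it was at least 7.17-fold higher at day 2 in KO+Rescue, 4.92-fold in KO and 5.80-fold in WT (adjusted p = 5.05e-05, 0.000176 and 0.000191). At day 2 it was 0.190 to 0.544% of Cox6a1 per kilobase. Ndufa4l2, a hypoxia-responsive relative of Ndufa4, had 12.9 and 17.8 at day 2 against 5.23 and 0 in mESC in KO+Rescue, 46.5 and 23.9 at day 2 against 3.36 and 6.74 in mESC in KO, and 34.5 and 30.4 at day 2 against 7.11 and 4.07 in mESC in WT. It rose by 2.70 ± 0.76, 2.57 ± 0.76 and 2.38 ± 0.76 (adjusted p = 0.00858, 0.0109 and 0.0189), on 0 to 6 reads in the mESC libraries. It missed the threshold without KO+Rescue library B or KO library A of either stage, and in WT without mESC library B or day 2 library A. Ndufa2 rose in WT alone (0.42 ± 0.16, adjusted p = 0.0433), and its stage change did not differ between KO and WT by the test (-0.49 ± 0.23, adjusted p = 0.384). Without WT mESC library A or WT day 2 library B it missed the threshold (0.288 and 0.163).

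The other tissue forms were near the limit of what was measured. Cox8b had 3 reads in all, 2 in WT mESC library A and 1 in library B. Cox4i2, the lung and oxygen-responsive form, was at 0.0115 to 0.164% of Cox4i1 per kilobase over the 12 libraries. It had 9.41 and 28.5 in KO+Rescue, 8.96 and 14.8 in KO, and 33.2 and 30.5 in WT mESC, with both WT libraries above the other 4, and its differences from WT did not pass (-0.91 ± 0.50 in KO+Rescue and -1.39 ± 0.50 in KO, adjusted p = 0.211 and 0.0942). With the length trend removed both passed as lower than WT (-1.53 and -1.75, 0.0353 and 0.0248). Cox7b2 and Cox8c, known from testis, were at 0.0608 to 0.534% of Cox7b and 0.146 to 0.451% of Cox8a, and neither passed in any comparison.

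Whether the genotype effect changed with stage was tested by interaction. For KO against WT, 0 of the 83 genes were called, beside 1.13% of all tested genes, with 2 at an unadjusted p under 0.05 and 0 by edgeR or DESeq2. For KO+Rescue against KO, 0 were called, beside 0.0847%, with 4 at an unadjusted p under 0.05 and 0 by edgeR or DESeq2. The counts of calls that differ between the stages, or between genotypes in the stage change, are thus not shown to be effects of different size. The same test for KO+Rescue against WT was not run.

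The respiratory chain genes are short, with a median transcript of 1046.5 bases against 3266 over all tested genes, and the medians by complex were 990 bases in I, 3141 in II, 1595 in III, 680 in IV and 1474 in V. Transcript length moved with the comparisons. In KO+Rescue against WT mESC, the other tested genes of up to 1000 bases had a median difference of 0.61, those of 1000 to 2000 bases 0.16 and longer ones -0.14. The respiratory chain genes of the same classes had 0.88 (41 genes), 0.73 (22) and 0.58 (20), higher than the other genes in each class. In KO against WT mESC they had 0.63, 0.52 and 0.49, against 0.39, 0.13 and -0.12. From mESC to day 2 in WT they had -0.44, -0.40 and -0.33, against -0.24, -0.13 and 0.05.

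**Figure D5:**
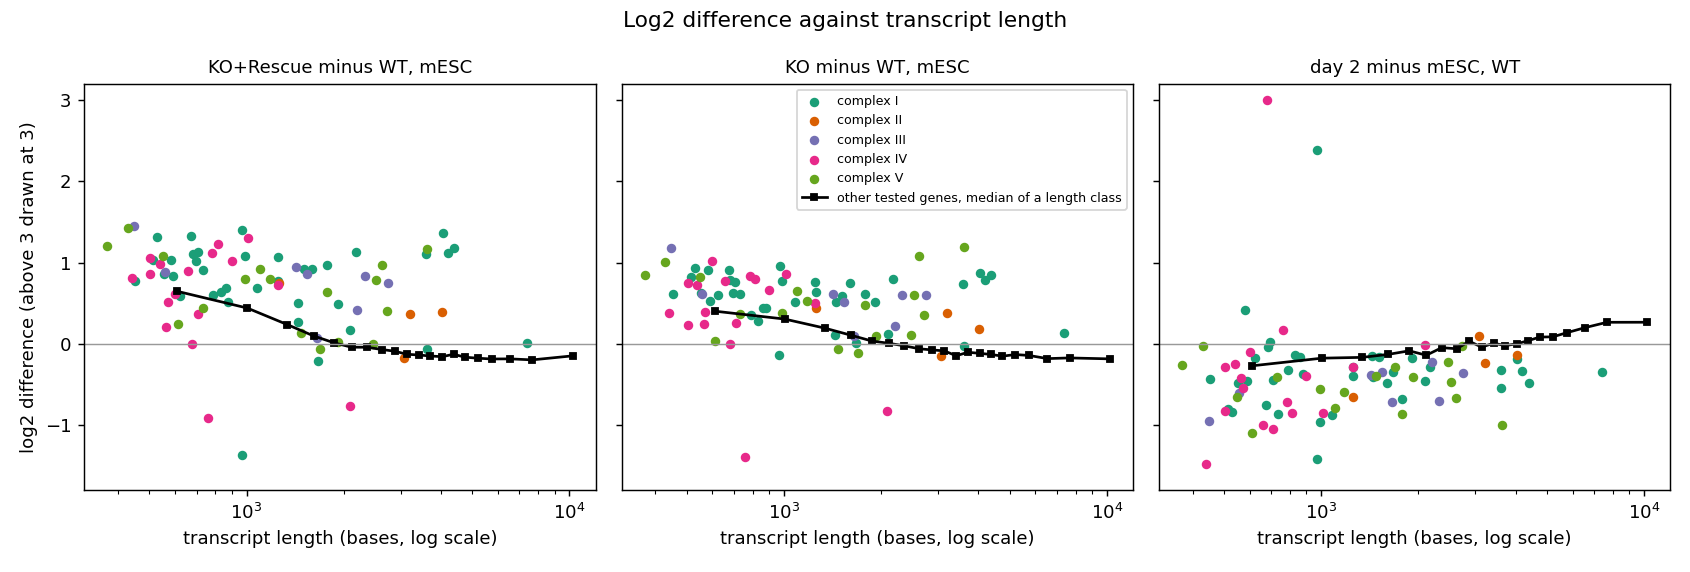
Log2 difference (y axis) against transcript length in bases (x axis, log scale) for the 83 tested respiratory chain genes, coloured by complex, with a black line for the medians of the other tested genes in 20 length classes, in KO+Rescue minus WT mESC, KO minus WT mESC and day 2 minus mESC of WT. The line falls with length between genotypes and rises between stages, and in the length classes above the members' medians lie further from 0 than those of the other genes.

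When the running median over genes of like length was taken off each library, 36 genes were higher and 3 lower in KO+Rescue than in WT mESC, 35 of the 36 among the 59 above, beside 8.32% of all genes called higher. The 3 lower ones were Atp5g1, Cox8a and Cox4i2. The median by complex was then 0.29 in complex I, 0.43 in complex II, 0.65 in complex III, 0.11 in complex IV and 0.41 in complex V, so that complex III led and complex IV, the shortest, was lowest. At day 2, 22 were higher and 2 lower in KO+Rescue (10 of the 22 shared with the uncorrected fit), beside 6.05%. In KO against WT mESC, 12 were higher and 2 lower (9 of the 12 shared), beside 4.4%. The stage change kept 44 lower genes in KO+Rescue, 44 in KO and 33 in WT, of which 43, 41 and 29 were also called without the correction, beside 30.5%, 30.6% and 28.2%. Uqcr10 was still higher in KO+Rescue and in KO than in WT mESC (0.70 and 0.70, adjusted p = 0.00436 and 0.00297), as were Atp5j (1.24 and 1.23) and Atp5o (1.01 and 1.08).

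The partners of these subunits were followed in lists chosen with earlier results known. In KO+Rescue against WT mESC, 5 of 14 assembly factors of complex I, 3 of 10 of complexes II and III, 8 of 19 of complex IV and 2 of 4 of complex V were higher, beside 9.15% of all tested genes. 1 was lower (Acad9 of complex I). Cox14, a factor in the making of COX1, was higher by 1.2 ± 0.22, Higd1a by 1.1 ± 0.20, and Uqcc2, which is needed for cytochrome b, by 1.3 ± 0.31 (adjusted p = 0.00731, 0.00731 and 0.019). Cycs, the somatic cytochrome c, was higher by 0.94 ± 0.20 (adjusted p = 0.0131), 1 of 5 of 11 electron carrier and coenzyme Q genes that passed. Ndufab1, the acyl carrier protein in complex I, was higher by 0.89 ± 0.18 (adjusted p = 0.0105). Of 16 citric acid cycle genes 1 was higher and 1 lower, and their median was -0.01. In KO against WT mESC the counts were 3 of 14, 1 of 10, 1 of 19 and 0 of 4 in the same order, beside 3.23%, and Ndufaf3 had the smallest p (0.69 ± 0.13, adjusted p = 0.00615). In KO+Rescue against WT at day 2 they were 4 of 14, 1 of 10, 1 of 19 and 1 of 4, beside 3.9%, the last of them Tmem70 (1.04 ± 0.25, adjusted p = 0.0223), and Cox15, needed for heme A, was lower (-0.52 ± 0.11, adjusted p = 0.0123).

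Of the 13 subunits encoded by mitochondrial DNA, 11 were tested, and none was called by limma between KO+Rescue, KO and WT at either stage. At an unadjusted p under 0.05 there were 6 in KO against WT and 3 in KO+Rescue against KO at day 2, 1 in KO+Rescue against WT mESC and 0 in the other 3 comparisons. By edgeR 1 was called in KO against WT at day 2, and by DESeq2 2 in that comparison and 1 in KO+Rescue against WT mESC. At day 2 10, 7 and 10 of 11 were lower in KO+Rescue, KO and WT, with medians of -1.70, -0.90 and -1.75, beside -0.69, -0.58 and -0.40 for the nuclear genes. Some of the 11 had few counted reads. In WT mESC the mean normalised count was 58.2 for COX2, 32.7 for ATP6, 97.2 for ND3 and 145.7 for COX3, against 155004 for COX1. The reason was not tested. COX1, the catalytic subunit of complex IV, had 36617 and 34082 at day 2 against 104136 and 174552 in mESC in KO+Rescue, 39498 and 42316 at day 2 against 112416 and 125860.0 in mESC in KO, and 36112 and 37742 at day 2 against 149248 and 160761 in mESC in WT. The stages did not overlap, and it changed by -1.93 ± 0.21, -1.54 ± 0.21 and -2.07 ± 0.21 (adjusted p = 6.75e-06, 4.73e-05 and 4.88e-06). CYTB, the cytochrome b of complex III, changed by -1.90, -1.12 and -1.86.

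Of 16 citric acid cycle genes, 8, 9 and 9 were lower at day 2 in KO+Rescue, KO and WT and 2, 3 and 1 higher. Of all tested genes 29.1%, 28.7% and 25.3% were lower and 29.2%, 31.4% and 26.6% higher. Idh2, the mitochondrial NADP-dependent isocitrate dehydrogenase, led with -1.29 ± 0.12, -1.47 ± 0.12 and -1.30 ± 0.12 (adjusted p = 1.91e-06, 5.7e-07 and 2.41e-06). Among assembly factors, Bcs1l, which inserts the Rieske protein, fell by 0.98, 0.95 and 0.94, and Cox11, which carries copper to complex IV, fell by 0.92, 0.82 and 0.79. Among 14 regulators of mitochondrial gene expression, Esrrb, a naive pluripotency factor and estrogen-related receptor, changed by -6.58, -6.16 and -4.88, and Tfb2m, a transcription factor of mitochondrial DNA, by -1.32, -1.05 and -1.24. Lin28a, an RNA-binding protein, rose by 1.37, 1.5 and 0.96. Of the factors whose motifs were searched, Gabpa fell in all 3 genotypes (-0.46, -0.46 and -0.74), Yy1 passed in KO+Rescue and WT (-0.39 and -0.37), and Nrf1 in none (-0.16, -0.18 and -0.15). Between genotypes Esrrb was lower than in WT at day 2, by 1.6 ± 0.21 in KO+Rescue and 1.54 ± 0.21 in KO (adjusted p = 0.000498 and 0.00083).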

How the data were processed

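RNA-seq libraries of KO+Rescue, KO and WT cells were used as deposited, in 6 groups of 2. The deposited table holds a signal, normalised read counts per gene, which the authors obtained with Trimmomatic for trimming, STAR for alignment of paired reads to mm10, featureCounts for read pairs per gene and the size factors of DESeq2 for scaling. Reads on the Y chromosome had been removed, and versions are not given in the sources used here. How reads that map to several places were counted is not stated, and many of these genes have processed pseudogenes, so that part of a count could be split. Within each library 100% of values were whole multiples of the smallest value above 0 (tolerance 0.001), which gave whole reads and library totals (ratio 1.72 between deepest and shallowest). The number of reads in a library limits precision, and the floor of 3 reads for a count of 0 covers counting error only.

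The 15341 genes whose mean over the libraries reached 10 normalised counts were fitted as log2(normalised count + 1) with limma 3.58.1 in R 4.3.3, with 6 group means over all 12 libraries and an intensity trend (6 residual and 6.92 prior degrees of freedom). All tests were two-sided. Benjamini-Hochberg adjustment ran within each contrast over all tested genes, and a gene was called below an adjusted p of 0.05. Errors are standard errors of the fit with n = 2 libraries per group, folds are antilogs of changes on the log2(normalised count + 1) scale, and for low genes they understate the change. Calls by edgeR 4.0.16 and DESeq2 1.42.0 on recovered reads, other pseudocounts and filters, equal library totals, a replicate block, fits of the compared groups alone, fits without each library and the removal of the transcript length trend (running median over 501 genes, lengths from GENCODE vM39 found for 95.5% of tested genes) were alternatives. The test was tried on simulated data.

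The genes, lists and comparisons were chosen with earlier results of these data known. Named were, in each contrast, up to 6 called members per direction with the largest change and no overlap between the groups, a few core subunits of each complex, tissue isoform pairs, members on chromosomes 11 and 16 and up to 3 genes per list. Positions come from RefSeq GRCm38.p6. A result on 1 item is not reported here. All 12 libraries entered each fit except where a sentence says that one was left out.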

Additional observations from a re-analysis of the deposited data

How the results depend on the processing

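None of the 47 named changes that were called turned its sign under any alternative run. Among genes named without a call, Atp5g1 did. Its difference between KO and WT mESC was above 0 in the main fit and not called. With the length trend removed it was called lower in KO (-0.43, adjusted p = 0.0276). For KO+Rescue against WT mESC, the number of respiratory chain genes called was 39 with no filter, 12 in a fit of only the groups compared and 39 with the length trend removed, and 1 to 63 when 1 library was left out. For KO+Rescue against WT at day 2 it was 2 with no filter, 25 by DESeq2, 5 in the groups alone and 24 without the length trend, and 0 to 42 when 1 library was left out. For KO against WT it was in mESC 6 with no filter, 38 by DESeq2 and 2 in the groups alone (1 to 54 when 1 library was left out), and at day 2 1 with no filter, 5 by DESeq2, 0 in the groups alone and 5 without the length trend (0 to 14). For KO+Rescue against KO at day 2 it was 2 with equal library totals, 15 in the groups alone (11 higher, 4 lower) and 2 without the length trend (0 to 0). For the stage it was 37 in KO+Rescue and 36 in KO with equal totals (33 to 68 and 20 to 52), and in WT 21 with equal totals and 17 in the groups alone (14 to 51). Over all genes DESeq2 called 780 of 13964 higher in KO against WT mESC and 426 of 16883 at day 2. For KO+Rescue against WT at day 2 it called 945 of 15424 higher. The main fit called 495, 241 and 598 of 15341 higher. For the stage, equal totals called 8663, 8766 and 7344 genes in KO+Rescue, KO and WT, against 8935, 9219 and 7967. The shares of all genes with no filter, in the groups alone, with the replicate block or with 1 library left out are not given. The cause of these shifts was not tested. With equal totals the median of all genes moved by -0.32 in KO+Rescue and -0.21 in KO against WT mESC. In KO 8 respiratory chain genes were then higher and 1 lower, beside 235 higher and 1373 lower of all 15341 genes. The count test of edgeR on the recovered reads called 53, 10 and 0 genes in mESC (for KO+Rescue and KO over WT, then KO+Rescue over KO), 15, 3 and 1 in the same comparisons at day 2, and 64, 59 and 43 for the stage in KO+Rescue, KO and WT. Of all 15341 genes it called 2815, 1434 and 159 in mESC and 1915, 1043 and 355 at day 2. For the stage it called 8762, 9257 and 8227, in the same orders. Of the 47 named changes, 18 were called under every alternative, all of them between stages. By DESeq2, Ndufb4 and Ndufs4 missed the threshold in KO+Rescue against WT at day 2 (adjusted p = 0.109 and 0.0851), and by edgeR Ndufa2 missed it in the WT stage change (0.0627).

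The letters A and B do not mark a shared culture or day in the labels, and deviations of libraries with the same letter correlated at 0.413 between WT mESC and WT day 2 at 0.125 to 0.171 between the mESC groups and at -0.0481 to 0.233 elsewhere. Library B lay above library A in all 3 mESC groups in the median deviation of the respiratory chain genes. With only 2 letters this is a hint from the data, and they were not taken as pairs. With the replicate block the counts were 57 in mESC and 23 at day 2 for KO against WT, 50 for KO+Rescue against WT at day 2, 2 for KO+Rescue against KO at day 2 and 58 for the WT stage change. Depth limits mainly the tissue forms with few reads, such as Cox8b, Cox6a2 and Ndufa4l2.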
